A study of Mus musculus with 6 samples.

Results

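The genes described here are 32 antiviral interferon-stimulated genes, a list set by gene symbol, and all 32 were matched among the 41388 Ensembl gene identifiers in the files. They were measured by RNA-seq in KP2 cells, a murine pancreatic cancer line that came from the KPC model, in which engineered alleles drive tumours of the pancreas, on strain C57BL/6J and at early passage. The study compared 3 groups of 2 libraries: wild-type cells, cells in which Irak4 was knocked out (KO), and KO cells with a rescue. KO cells were made by infection with plentiCRISPR vectors, lentiviruses that carry the nuclease and a guide RNA against Irak4, and the rescue cells carry that knockout too. All cells grew in DMEM with serum, and no interferon or other stimulus is named. The labels do not describe the rescue construct, do not give a vector in the wild-type cells, and do not say whether the KO cells are a clone or a pool. Irak4 loss and vector infection therefore cannot be told apart in the KO, nor can return of Irak4 and a further construct in the rescue. Nothing in the labels says that the libraries of a group came from separate cultures, so the spread that p-values rest on may be technical.

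Interferon-stimulated genes are switched on when a cell senses foreign or misplaced nucleic acid or receives interferon. Interferons bind receptors on the cell surface, JAK kinases phosphorylate STAT proteins, and a complex of these with IRF9 binds interferon-stimulated response elements (ISRE) in promoters. Many tumour cells keep a low level of this programme without added interferon. The proteins listed here bind or degrade viral RNA, modify proteins with the ubiquitin-like ISG15, hold back virus entry or release, or limit the response itself. IRAK4 is a kinase of another arm of innate immunity, which links Toll-like receptors and the receptor of interleukin-1 to NF-kB.

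The promoters of 24 members were matched among RefSeq windows (GRCm38.p6, 250 bases before to 50 after each start), and 9 of these held the ISRE core (GAAA, any 2 bases, then GAAA) on either strand. Of all genes with such windows 3.99% held it in a window of that length, and overlapping matches are counted in the same window. The gamma-activated core TTCNNNGAA, which reads the same on both strands, was in windows of 5 members, against 9.55% of all genes. The lines below show 60 bases upstream of the start for members whose levels are described next, 5′ to 3′ on the gene's strand, with each ISRE core in capitals (TTTC, any 2 bases, then TTTC is the same core on the other strand).
Isg15, chr4:156200850-156200909, minus strand: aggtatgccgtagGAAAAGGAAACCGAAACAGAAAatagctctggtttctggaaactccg
Bst2, chr8:71537562-71537621, minus strand: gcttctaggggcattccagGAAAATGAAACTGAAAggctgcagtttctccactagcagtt
Trim30a, chr7:104465195-104465254, minus strand: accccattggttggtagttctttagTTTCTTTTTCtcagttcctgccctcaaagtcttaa
Rsad2, chr12:26456538-26456597, minus strand: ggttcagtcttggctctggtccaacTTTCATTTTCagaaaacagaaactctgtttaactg
Ifit1, chr19:34640779-34640838, plus strand: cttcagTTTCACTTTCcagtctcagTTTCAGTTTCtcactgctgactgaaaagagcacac
Ifit3, chr19:34583382-34583441, plus strand: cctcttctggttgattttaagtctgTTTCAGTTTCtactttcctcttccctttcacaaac
Ifit3b, chr19:34607778-34607837, plus strand: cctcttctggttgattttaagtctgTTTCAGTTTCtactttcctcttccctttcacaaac
The Isg15 stretch holds 3 overlapping cores, the last of them starting 66 bases before the start. The Ifit3 and Ifit3b stretches agree in 60 of 60 bases. These stretches were chosen to show the core in members of both kinds, those that rose again in the rescue and those not called again (Ifit1 and Ifit3b). Cores were also found in Trim21 and Ifitm3, after their starts. A match describes these letters only.

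Library totals ranged from 7605328 to 11505983 counts. Irak4, the targeted gene, stood at 37.9 and 37.6 normalised CPM (counts per 1000000, over the library size scaled by TMM) in the wild-type libraries, 20.4 and 21.8 with the knockout, and 492 and 211 with the rescue. Both KO libraries were below both wild-type libraries, but the difference did not pass the test (log2 fold change -0.843, SE 0.335, adjusted p = 0.057). That test takes its spread from all 6 libraries, the rescue libraries included. The first rescue library thus held 2.33 times the Irak4 of the second, and counts do not separate the gene from a construct. Epithelial keratin genes were high (Krt8, Krt18, Krt19), while Epcam had 0.12 CPM in the first wild-type library and 0 in the other 5. The 6 epithelial markers summed to 6412 to 6670 CPM for wild type, 3670 to 3791 for KO and 4507 to 5318 for rescue libraries, a sum carried by Krt8, Krt18 and Krt19. Cdh1 instead fell at both steps, from 378 to 204.8 and 119.1 CPM (adjusted p = 0.00075 and 0.011), and Krt7 fell in the KO, from 39 counts in wild type to 1, with 1 in the rescue (adjusted p = 0.00035 in the KO). Of 8 immune markers 6 had 0 counts in every library, and the list summed to at most 0.25 CPM. The 3 fibroblast markers summed to at most 0.53 CPM, with Dcn and Lum at 0. Endothelial markers summed to 4.63 to 5.28 CPM for wild type, 16.0 to 30.6 for KO and 14.8 to 38.0 for rescue libraries. Cdh5 gave most of this in every library and rose in the KO (6.83-fold, adjusted p = 6.6e-04), while Pecam1 was at most 0.25 CPM. Kdr, at most 1.66 CPM, went the other way. It fell from 30 counts in wild type to 2 in the KO and 1 in the rescue (adjusted p = 9.4e-04 in the KO). The part of these marker shifts in the results below was not tested. In bulk libraries, a change in the number of cells that express a gene and a change in RNA per cell cannot be told apart.

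The members took 0.172% and 0.186% of all counts in the wild-type libraries, 0.316% and 0.306% with the knockout and 0.383% and 0.346% with the rescue. Of the 30 members with enough counts to test, 27 rose in the KO against wild type, 1 (Isg20) fell, and 2 (Ifi27 and Samd9l) were not called. Over all 12339 genes tested 23.2% were called higher and 23.5% lower in that comparison. The median log2 fold change of the tested members was 1.34, and that of all genes tested was 0.01. In the rescue against the KO 14 of 30 rose and 0 fell by edgeR, where 8.35% of all genes tested were called higher and 5.88% lower. By DESeq2 11 rose and 0 fell. The median was 0.34 for the members and -0.004 for all genes tested. Before any test, both KO libraries were above both wild-type libraries in 27 of 30 members (39.1% of all genes tested), and both rescue libraries were above both KO libraries in 19 (29.3%) and above both wild-type libraries in 28 (31.2%). The order wild type, KO, rescue without overlap held for 17 members, and for 2.77% of all genes tested. Mx1 and Sp110 had too few counts to test.

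**Figure D1:**
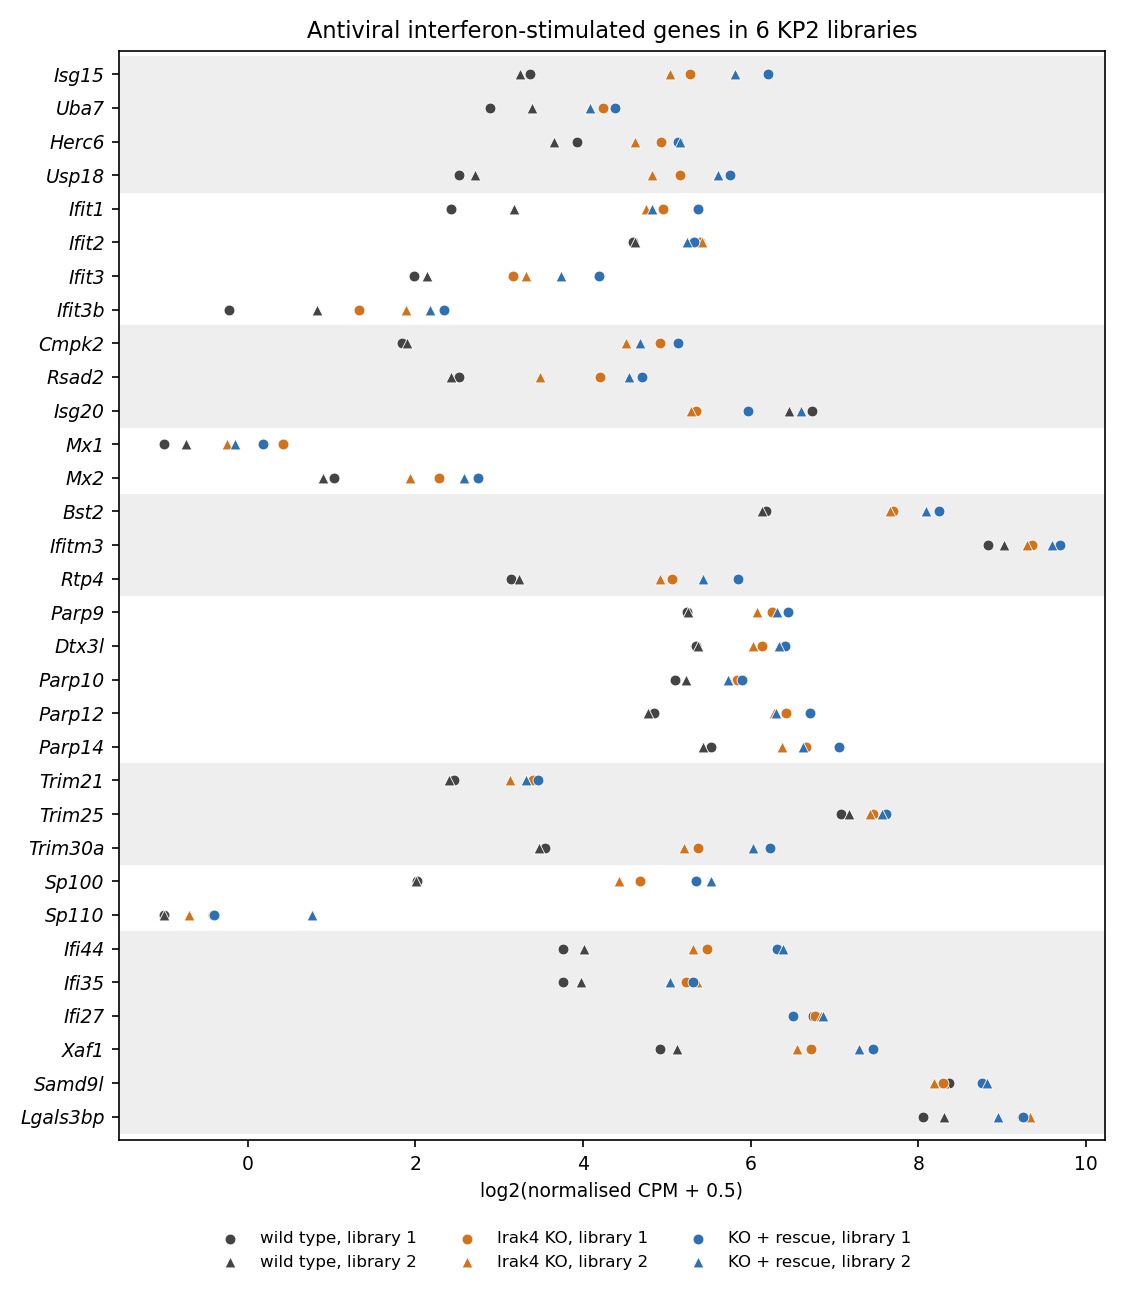
Level of each of the 32 genes in each library, as log2 of normalised CPM plus 0.5, with genes grouped by role in shaded bands, colours for the groups and symbols for the first and second library. For most genes both wild-type libraries lie to the left of the KO and rescue libraries; Isg20 is the reverse, with both KO libraries lowest, and Ifi27 shows no separation.

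Per length, the order of the members was led by Ifitm3, with a mean deposited RPKM (CPM per kilobase of gene length) of 687 for wild type, 991 for KO and 1175 for rescue. Lgals3bp and Bst2 followed in wild type at 97.5 and 88.6 RPKM, and Bst2 came ahead of Lgals3bp in the KO at 279 against 228. Isg15 moved from rank 8 of the 32 in wild type (11.9 RPKM) to rank 6 in the KO (48.8) and rank 4 in the rescue (85.1). At the low end Mx2, Mx1 and Sp110 held the last ranks in all 3 groups, with Mx2 at 0.39 RPKM in wild type. Deposited RPKM and the shares of all counts above rest on raw library totals, without the TMM scaling of the CPM values. With that scaling Ifitm3 rose 1.32-fold in the KO.

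The ISG15 conjugation genes rose in the KO in 4 of 4 (23.2% of all genes tested). Isg15 (ENSMUSG00000035692, GRCm38 chromosome 4, 156199424 to 156200818), the ubiquitin-like protein itself, was at 9.86 and 8.99 CPM in the wild-type libraries, 38.4 and 32.3 with the knockout, and 73.3 and 55.7 with the rescue. The groups did not overlap at either step. Its transcript shares 482 bases at 95.2% identity with AC151275.1, so its count is uncertain to that extent, and 11 of the 32 members have such a near-identical stretch in another gene. Isg15 rose 3.78-fold in the KO (log2 fold change 1.92, SE 0.17, adjusted p = 8.2e-06) and a further 1.82-fold in the rescue (log2 fold change 0.86, SE 0.14, adjusted p = 0.0035). Usp18, which removes ISG15 from proteins and restrains the type I interferon receptor, was at 5.22 and 6.06 CPM in the wild-type libraries, 35.2 and 27.9 with the knockout, and 53.4 and 48.5 with the rescue. Again no library of one group reached the next. Its rise was 5.58-fold in the KO (adjusted p = 1.3e-06) and 1.61-fold from KO to rescue (log2 fold change 0.68, SE 0.13, adjusted p = 0.0071). Uba7, the activating enzyme for ISG15, went from 8.43 ± 2.18 CPM (SD, n = 2) to 17.4 ± 1.33 in the KO and stood at 18.4 ± 2.67 in the rescue, where its difference from the KO was 0.07 (SE 0.18) on the log2 scale. Herc6, the main ISG15 ligase of the mouse, went from 13.4 ± 1.84 to 27.1 ± 4.12 CPM in the KO. In the rescue it was at 34.8 ± 0.29, above both KO libraries but not called (log2 fold change 0.35, SE 0.14, adjusted p = 0.10). Ube2l6, the conjugating enzyme of the same pathway and not one of the 32, rose at both steps, from 13.9 to 25.97 and 34.6 CPM (adjusted p = 2.4e-04 and 0.044).

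The IFIT genes form a family, in which Ifit1 encodes a protein that binds viral RNA lacking host cap marks. In the KO 4 of 4 IFIT genes rose (23.2% of all genes tested). They lie within 200 kb of each other on chromosome 19, from Ifit2 (34550694 to 34576419) to Ifit1 (34640871 to 34650009). Ifit1 was at 4.87 and 8.5 CPM in the wild-type libraries, 30.4 and 26.5 with the knockout, and 40.8 and 27.8 with the rescue. The KO libraries were far above wild type (4.19-fold, adjusted p = 4.9e-05), while the rescue libraries overlapped with them (adjusted p = 0.39). Ifit3 was at 3.44 and 3.91 CPM in the wild-type libraries, 8.44 and 9.51 with the knockout, and 17.8 and 12.8 with the rescue. It rose at both steps, by 1.27 (SE 0.23, adjusted p = 0.001) and 0.78 (SE 0.19, adjusted p = 0.023) on the log2 scale. The second rise was not called without either KO library or without the first rescue library. Ifit3b, its neighbour, had 3 and 13 counts in the wild-type libraries, 24 and 28 with the knockout, and 36 and 30 with the rescue. The KO rise of Ifit3b passed (log2 fold change 1.56, SE 0.48, adjusted p = 0.02), and its rescue difference did not (0.75, SE 0.37, adjusted p = 0.19). Ifit3b was not called in the KO without the first wild-type library or without the second KO library, or by DESeq2. Ifit3 and Ifit3b transcripts are 97.8% identical over 1700 bases, so how their shared reads were counted makes both values uncertain. Ifit2 rose from 23.9 ± 0.20 to 42.0 ± 0.41 CPM in the KO (adjusted p = 8.4e-05) and was at 38.4 ± 1.52 in the rescue, with both rescue libraries below both KO libraries and no call (adjusted p = 0.41).

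Cmpk2 and Rsad2, neighbours on chromosome 12 that are transcribed away from each other (26469204 to 26479835 and 26442753 to 26456452), both rose in the KO. Cmpk2, a mitochondrial nucleotide kinase, was at 3.09 and 3.22 CPM in the wild-type libraries, 29.8 and 22.2 with the knockout, and 34.6 and 25.2 with the rescue. Its 8.27-fold rise in the KO was the largest among the 30 tested members (log2 fold change 3.05, SE 0.24, adjusted p = 3.4e-06), and the rescue libraries overlapped with the KO (0.19, SE 0.17, adjusted p = 0.49). Rsad2, which encodes viperin, an enzyme that makes a chain-terminating nucleotide, was at 5.22 and 4.89 CPM in the wild-type libraries, 17.9 and 10.7 with the knockout, and 25.6 and 22.9 with the rescue. It rose at both steps (adjusted p = 4.3e-04 and 0.033), and the second was lost without either wild-type library or the second KO library. Whether the rescue changes of the neighbours differ from each other was not tested. Isg20, an RNA exonuclease on chromosome 7 (78913424 to 78920362), was at 105.4 and 87.6 CPM in the wild-type libraries, 40.1 and 38.6 with the knockout, and 61.9 and 96.8 with the rescue. Both KO libraries were the lowest, and the rescue libraries reached from below to within the wild-type range. Isg20 fell by 1.29 on the log2 scale in the KO (SE 0.17, adjusted p = 1.2e-04) and rose by 1.01 from KO to rescue (SE 0.17, adjusted p = 0.005). Against wild type its rescue log2 fold change was -0.28 (SE 0.17, adjusted p = 0.25), and without the second rescue library it was called lower than wild type. Its first rescue library held 0.64 times the level of the second, the lowest such ratio among the 30 tested members.

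Among the membrane proteins 3 of 3 rose in the KO and 3 of 3 rose again in the rescue. Over all genes tested 23.2% and 8.35% were called higher at these steps. Bst2, or tetherin, which holds budding virus at the cell surface, was at 72.1 and 69.5 CPM in the wild-type libraries, 206.4 and 201.5 with the knockout, and 303.5 and 271.7 with the rescue. All 3 groups were separate, with steps of 2.88-fold (adjusted p = 5.0e-07) and 1.41-fold (log2 fold change 0.50, SE 0.08, adjusted p = 0.0045). Rtp4, a receptor-trafficking protein induced by interferon, was at 8.31 and 8.89 CPM in the wild-type libraries, 32.9 and 29.8 with the knockout, and 57.2 and 42.5 with the rescue. It too was separate in all groups, with log2 fold changes of 1.86 (SE 0.17, adjusted p = 1.0e-05) and 0.67 (SE 0.14, adjusted p = 0.011). Ifitm3, which blocks virus fusion in endosomes, changed least of these genes, from 453.5 and 520.4 CPM in the wild-type libraries to 657.1 and 630.3 with the knockout and 825.2 and 772.7 with the rescue. Its steps were 0.40 (SE 0.09, adjusted p = 0.0039) and 0.31 (SE 0.09, adjusted p = 0.044) on the log2 scale. The first was not called without the first wild-type library, and the second was lost without any 1 library other than the second rescue library.

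The Mx GTPases trap viral components, and laboratory strains such as C57BL/6J are known to carry defective copies. Mx1 had 0 and 1 counts in the wild-type libraries, 10 and 3 with the knockout, and 5 and 3 with the rescue. Mx2, annotated as a polymorphic pseudogene, had 13 and 14 counts in the wild-type libraries, 52 and 29 with the knockout, and 49 and 41 with the rescue. Mx2 rose in the KO (log2 fold change 1.42, SE 0.31, adjusted p = 0.003), and both rescue libraries were above both KO libraries in CPM without passing (0.59, SE 0.25, adjusted p = 0.13). The transcripts of both genes share a stretch of 843 bases at 95.3% identity.

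**Figure D2:**
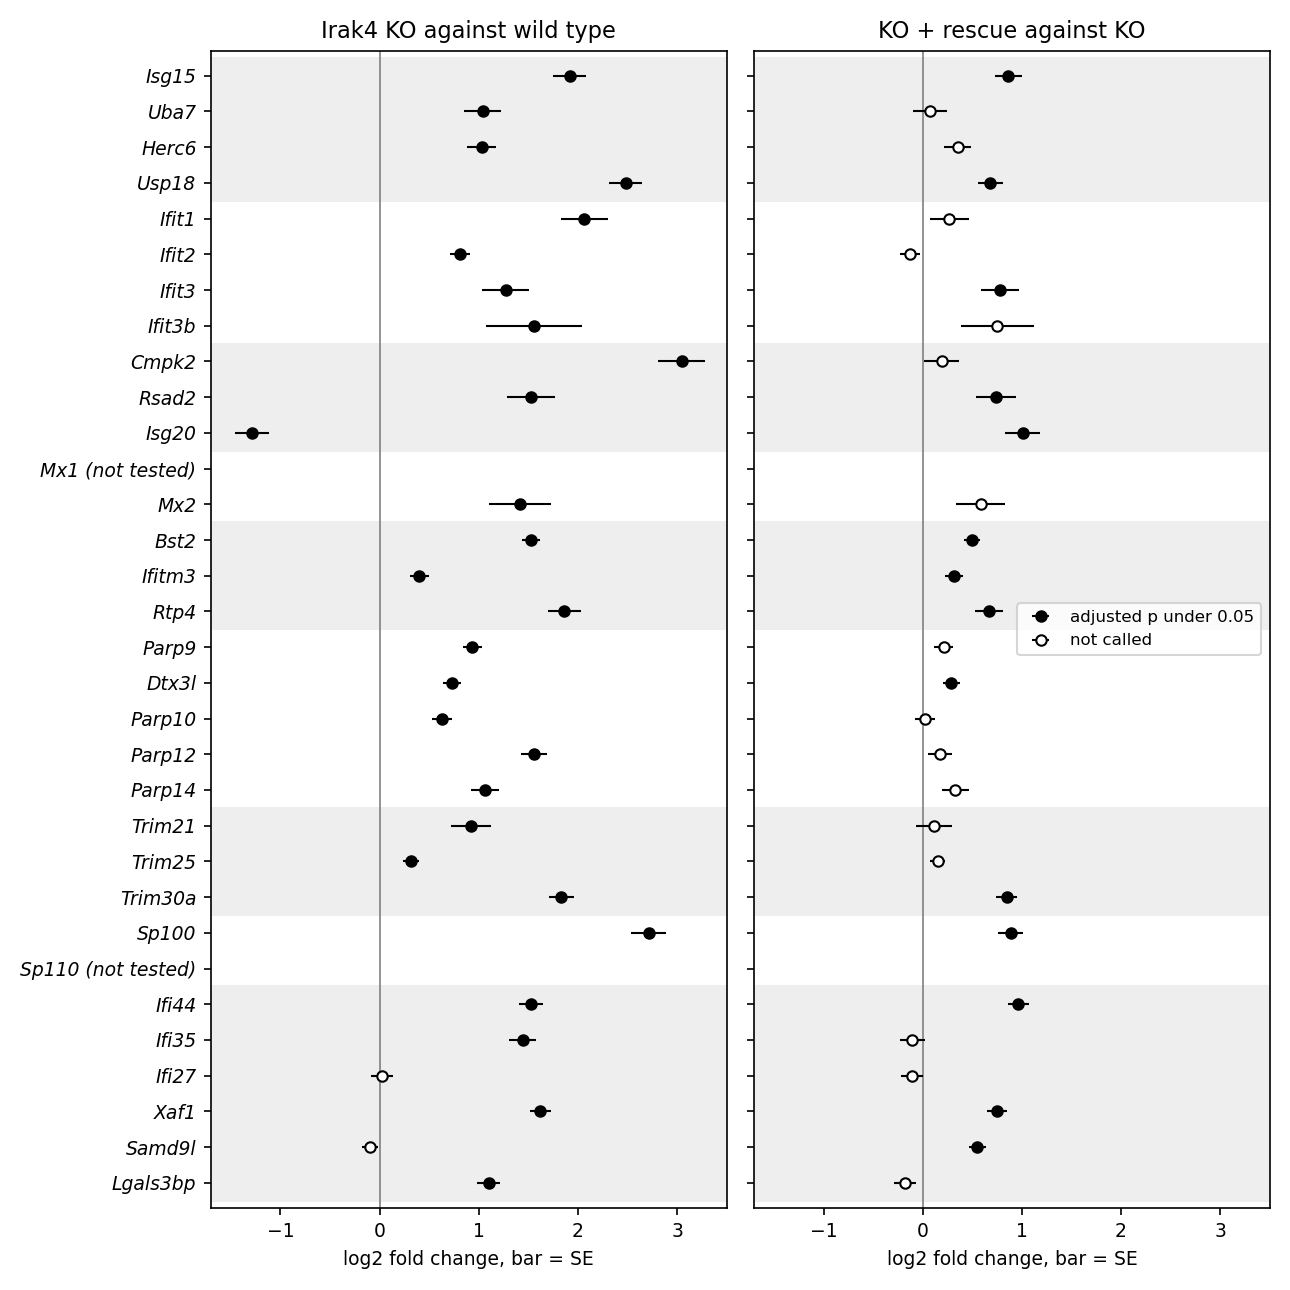
Log2 fold change with its standard error for each gene, in the KO against wild type on the left and in the rescue against the KO on the right, with filled points for adjusted p under 0.05. On the left 27 filled points lie above 0 and Isg20 lies below it; on the right 14 filled points lie above 0, up to 1.01 for Isg20. The panels share the KO libraries.

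The PARP genes and Dtx3l, which add ADP-ribose or ubiquitin to proteins, rose in the KO in 5 of 5 (23.2% of all genes tested). Their fold changes lay between 1.55 (Parp10) and 2.94 (Parp12). Parp9 and Dtx3l, whose proteins work as a complex, start head to head on chromosome 16 with overlapping exons on opposite strands. As no strand setting is given, their reads in the overlap cannot be told apart. Dtx3l was at 40.1 and 40.7 CPM in the wild-type libraries, 69.5 and 64.8 with the knockout, and 84.3 and 80.0 with the rescue. Its rescue difference was just past the threshold (log2 fold change 0.29, SE 0.09, adjusted p = 0.046) and was lost without any 1 of the 6 libraries. Parp9 went from 37.4 ± 0.32 to 71.4 ± 6.00 CPM in the KO and 82.8 ± 5.22 in the rescue (adjusted p = 0.15). Parp14, which also modifies proteins with single ADP-ribose units, lies next to Dtx3l and went from 44.2 ± 1.98 to 91.7 ± 12.9 and 115 ± 24.1 CPM. Parp12, a zinc-finger member of the family, was at 27.7 ± 1.00, 81.1 ± 5.63 and 91.4 ± 18.3 CPM in the same order. Without the second rescue library Parp12 and Parp14 were called higher in the rescue than in the KO. Parp10 went from 35.4 ± 2.19 to 54.8 ± 2.35 CPM and was at 55.7 ± 4.50 in the rescue, and it shares exon sequence with Plec on the same strand.

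The TRIM ubiquitin ligases rose in the KO in 3 of 3 (23.2% of all genes tested). Of them 1, Trim30a, rose again (8.35% of all genes tested rose from KO to rescue). Trim30a (chromosome 7, 104409025 to 104465193), described as a brake on Toll-like receptor signalling to NF-kB, was at 11.2 and 10.7 CPM in the wild-type libraries, 41.0 and 36.4 with the knockout, and 74.6 and 65.0 with the rescue. The 3 groups were separate, with log2 fold changes of 1.83 (SE 0.13, adjusted p = 1.7e-06) and 0.85 (SE 0.11, adjusted p = 0.0015). Trim21, a cytosolic antibody receptor, went from 4.89 ± 0.14 to 9.18 ± 1.32 CPM in the KO and was at 9.99 ± 0.76 in the rescue. Trim25, a ligase of the RIG-I pathway, had the smallest rise called in the KO, from 139.2 ± 6.73 to 173.6 ± 3.06 CPM (log2 fold change 0.32, SE 0.08, adjusted p = 0.0068). That call was lost without the first wild-type library or the first KO library. In the rescue Trim25 was at 192.5 ± 3.90 CPM, above both KO libraries and not called (adjusted p = 0.23).

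Sp100, a component of PML nuclear bodies, had the largest difference between rescue and wild type. It was at 3.56 and 3.52 CPM in the wild-type libraries, 25.2 and 21.1 with the knockout, and 40.3 and 45.7 with the rescue. The log2 fold changes were 2.71 in the KO (SE 0.18, adjusted p = 1.2e-06) and 0.89 from KO to rescue (SE 0.13, adjusted p = 0.0025), which left the rescue 12.1-fold above wild type. Its relative Sp110, within 200 kb on chromosome 1, had 0 and 0 counts in the wild-type libraries, 3 and 1 with the knockout, and 2 and 9 with the rescue. Sp110 transcript sequence is 97.6% identical to that of Gm16026 over 2609 bases, so its count is uncertain. Sp100 shares 379 bases at 98.7% identity with Gm2619, and shorter stretches with Gm7592 and Gm7582. The count of Sp100 is uncertain to that extent.

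The other interferon-induced members did not move alike. Ifi44 was at 13.1 and 15.6 CPM in the wild-type libraries, 44.0 and 39.1 with the knockout, and 79.3 and 83.2 with the rescue. It had the smallest adjusted p from KO to rescue among the members (log2 fold change 0.96, SE 0.10, adjusted p = 9.4e-04), after a 2.89-fold rise in the KO. Xaf1, which binds and opposes the apoptosis inhibitor XIAP, was at 29.8 and 34.4 CPM in the wild-type libraries, 104.8 and 93.1 with the knockout, and 175.4 and 156.6 with the rescue. Its rises were 1.62 (SE 0.11, adjusted p = 1.4e-06) and 0.75 (SE 0.10, adjusted p = 0.0019) on the log2 scale. Samd9l, an antiviral gene that restrains growth, was at 329.0 and 314.9 CPM in the wild-type libraries, 312.7 and 290.2 with the knockout, and 433.2 and 450.8 with the rescue. The KO libraries were slightly below wild type and not called (log2 fold change -0.09, SE 0.08, adjusted p = 0.37), and the rescue rose above both other groups (0.55 over the KO, SE 0.08, adjusted p = 0.0029). Ifi27, a small mitochondrial membrane protein, was at 106.7 and 111.0 CPM in the wild-type libraries, 108.1 and 113.9 with the knockout, and 90.0 and 116.0 with the rescue, and its groups overlapped throughout (adjusted p from 0.55 to 0.86). Ifi35 rose in the KO, from 14.2 ± 1.54 to 38.7 ± 2.62 CPM, and was at 35.8 ± 4.92 in the rescue. Lgals3bp, a secreted glycoprotein that binds galectins, rose from 290.1 ± 35.9 to 622.8 ± 31.5 CPM and was at 550.5 ± 79.2 in the rescue. Without the first rescue library Lgals3bp was called lower in the rescue than in the KO.

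The members that rose in the KO and rose further in the rescue were Isg15, Usp18, Ifit3, Rsad2, Bst2, Ifitm3, Rtp4, Dtx3l, Trim30a, Sp100, Ifi44 and Xaf1. These are 12 of 30 tested members, where 0.397% of all genes tested (49 genes) met both calls, and they are 24.5% of those 49 genes. Both steps share the KO libraries, so this is a count and not a test. Their second step ranged from 0.29 (Dtx3l) to 0.96 (Ifi44) on the log2 scale. The 49 genes also include 5 of the pathway list given below, and Oas1a, Oas2, Oas3, Oasl2, H2-K1, H2-D1, B2m, Tap1, Psmb8, Psmb9 and Gbp3. A rise at both steps is thus not particular to the members. Another 15 members rose in the KO and were not called between KO and rescue: Uba7, Herc6, Ifit1, Ifit2, Ifit3b, Cmpk2, Mx2, Parp9, Parp10, Parp12, Parp14, Trim21, Trim25, Ifi35 and Lgals3bp. Their log2 differences ran from -0.18 (Lgals3bp) to 0.75 (Ifit3b), and a missed threshold does not show that levels stayed equal. None of the 27 was called lower in the rescue than in the KO, where 4.56% of all genes tested rose in the KO and fell in the rescue. Promoter windows with an ISRE core were found for 6 of the 10 matched genes that rose at both steps. In the other set they were found for 3 of the 11 matched genes, a description with no test. Dtx3l, Sp100, Ifi44 and Xaf1 rose at both steps with no core in their windows. Ifit3 and Ifit3b, alike in the stretch shown, fall in different sets.

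Most of these second rises were not called when the second KO library was left out, which leaves 1 library in that group. Without it 4 members were called higher in the rescue than in the KO, namely Trim30a (log2 fold change 0.76, adjusted p = 0.032), Sp100 (0.77, adjusted p = 0.042), Ifi44 (0.88, adjusted p = 0.026) and Xaf1 (0.66, adjusted p = 0.04), while calls over all genes went from 1756 to 203. Isg20 and Samd9l, which rose in the rescue without a rise in the KO, were not called either, at log2 fold changes of 0.98 and 0.49 in place of 1.01 and 0.55 (adjusted p = 0.06 and 0.053). The estimates moved less than the calls. Isg15 was then at 0.75 (SE 0.17, adjusted p = 0.054), Bst2 at 0.47 (SE 0.12, adjusted p = 0.065) and Usp18 at 0.53 (SE 0.14, adjusted p = 0.084). Ifit3 was at 0.85 (SE 0.25, adjusted p = 0.11), above its 0.78 with all libraries. Rsad2 dropped from 0.74 to 0.44 (SE 0.17, adjusted p = 0.19).

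**Figure D3:**
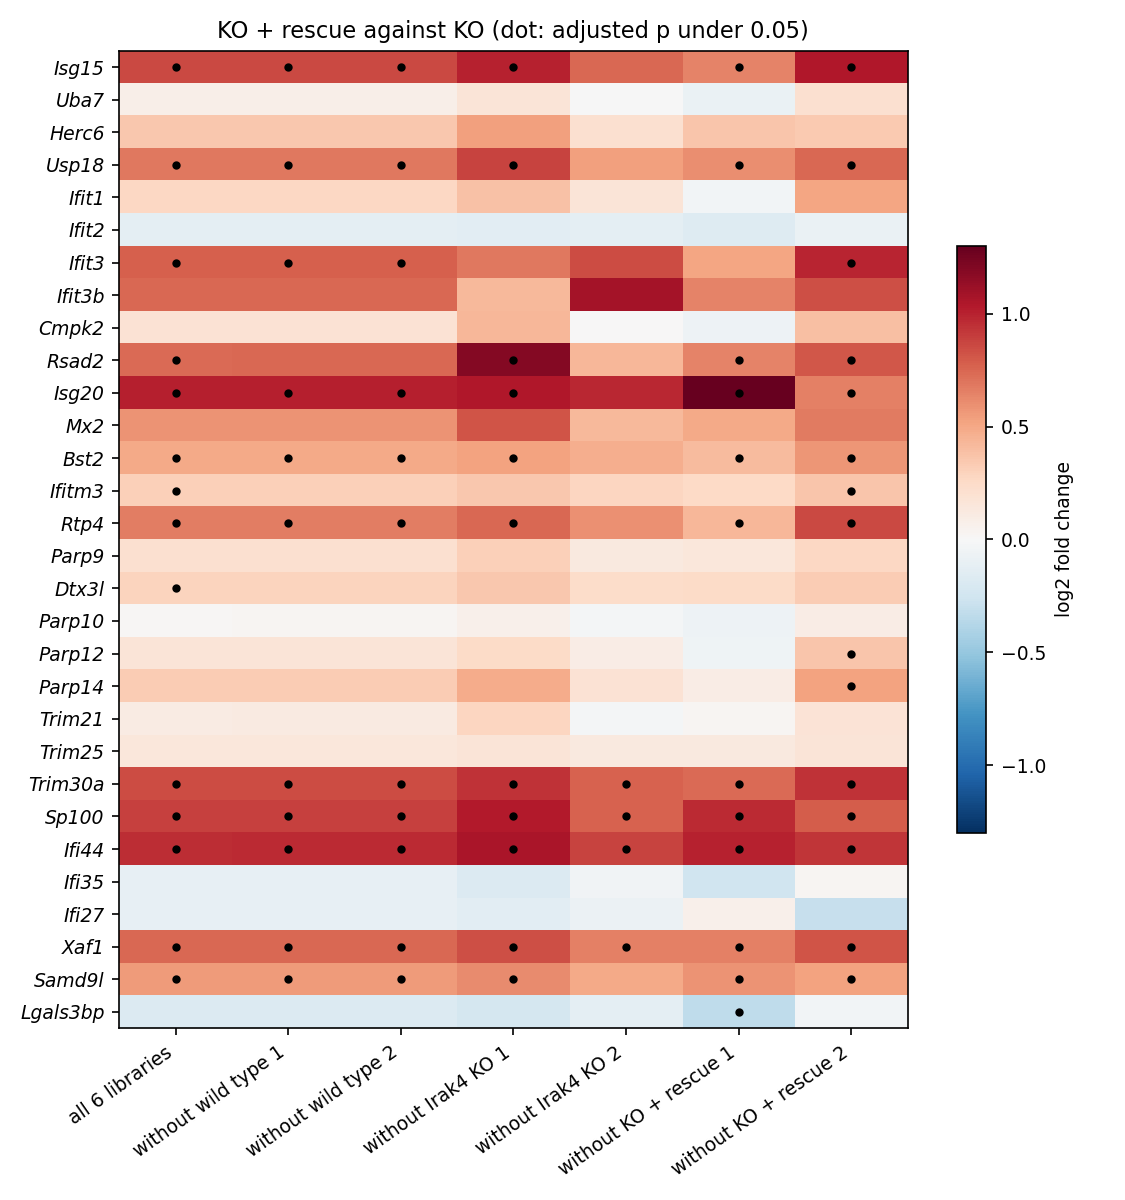
Log2 fold change of the rescue against the KO for the 30 tested genes, by colour, with all 6 libraries and with each library left out in turn, and a dot where adjusted p was under 0.05. Dots for Trim30a, Sp100, Ifi44 and Xaf1 are present in every column, and the column without the second KO library holds only these 4.

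In both the KO and the rescue, most members were higher in the first library than in the second. In 24 of 30 tested members the first rescue library was above the second, against 49.9% of all genes tested, with a median log2 ratio of 0.16 for the members and 0.0 for all genes. The same library had the higher Irak4, at 492 against 211 CPM. The first KO library was above the second in 24 of 30, against 50.8% of all genes, with a median log2 ratio of 0.15. Irak4 was at 20.4 and 21.8 CPM in these libraries, the first being the lower. Any link between the level of Irak4 and that of the members was not tested. In wild type 12 of 30 were higher in the first library, against 49.0% of all genes, with a median log2 ratio of -0.038 for the members and -0.004 for all genes. The members share libraries and regulators and are not independent observations of a library.

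Against wild type, 28 of 30 tested members were higher in the rescue and 0 lower, where 10.2% of all genes tested were called higher and 12.0% lower. The median log2 fold change was 1.56 for the members and 0.01 for all genes tested. The count of 28 held in each of the fits without 1 library. After Sp100, the highest were Cmpk2 (9.44-fold, adjusted p = 3.2e-06), Usp18 (8.96-fold, adjusted p = 2.1e-07) and Isg15 (6.86-fold, adjusted p = 5.7e-07). The lowest rises called were in Samd9l (1.37-fold) and Trim25 (1.38-fold). This comparison shares its rescue and wild-type libraries with the ones above.

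Other genes of the interferon and nucleic acid sensing pathways were taken from a list of 39, of which 29 were tested. In the KO against wild type 14 rose and 5 fell (23.2% and 23.5% of all genes tested). In the rescue against the KO 6 rose and 1 fell (8.35% and 5.88% of all genes). In the rescue against wild type 13 rose and 4 fell (10.2% and 12.0% of all genes). The 8 ligands listed were nearly silent, and no interferon alpha gene other than Ifna2 and Ifna4 was listed. Ifnb1, Ifna2, Ifna4, Ifnl2, Ifnl3 and Ifng had 0 counts in all 6 libraries. Over their 54768943 counts together this allows up to 0.0548 CPM (3 counts, counting error only), and more within any 1 group. Ifne had 3 counts in all, and Ifnk had 2 in each KO library and 0 elsewhere. No receptor rose. Ifnar1, a chain of the type I receptor, was at 82.5, 82.7 and 82.7 CPM on average in wild type, KO and rescue. Ifnar2 and Ifngr1 fell in the KO, from 25.1 to 18.6 CPM (adjusted p = 0.023) and from 296.2 to 191.8 CPM (adjusted p = 1.1e-04). Ifngr2 fell from KO to rescue, from 86.5 to 62.4 CPM (adjusted p = 0.014). Of the kinases Jak2 fell from 91.8 to 42.7 CPM in the KO (adjusted p = 1.4e-05), and Jak1 fell from 256.7 to 212.0 CPM (adjusted p = 0.034).

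Among the factors that act on ISRE sites, Stat2 rose from 37.5 and 39.6 to 84.3 and 81.7 CPM and Irf9 from a mean of 40.0 to 69.1, and their rescue levels of 101.1 and 83.3 CPM did not pass against the KO (adjusted p = 0.056 and 0.072). Irf7, the factor that amplifies type I interferon responses, was at 14.4 and 16.4 CPM in the wild-type libraries, 42.5 and 42.4 with the knockout, and 72.0 and 66.1 with the rescue. It rose at both steps (adjusted p = 3e-06 and 0.0023). Irf1, Irf2 and Irf3 were not called in any comparison. Of 10 nucleic acid sensors and their partners 9 rose in the KO (23.2% of all genes tested did), and Mavs was not called. Ddx58, Ifih1 and Dhx58, the RIG-I-like receptors, rose again in the rescue (adjusted p = 0.012, 0.043 and 0.026). Tlr3 (log2 fold change 0.03, SE 0.16) and the cGAS gene, listed as Mb21d1 (-0.22, SE 0.16), were not called between rescue and KO. Among the restraints Socs3 fell from 58.2 to 28.1 CPM in the KO (adjusted p = 1.5e-05) and rose to 37.3 in the rescue (adjusted p = 0.027), while Adar rose from 122.0 to 180.2 (adjusted p = 3.2e-04).

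**Figure D4:**
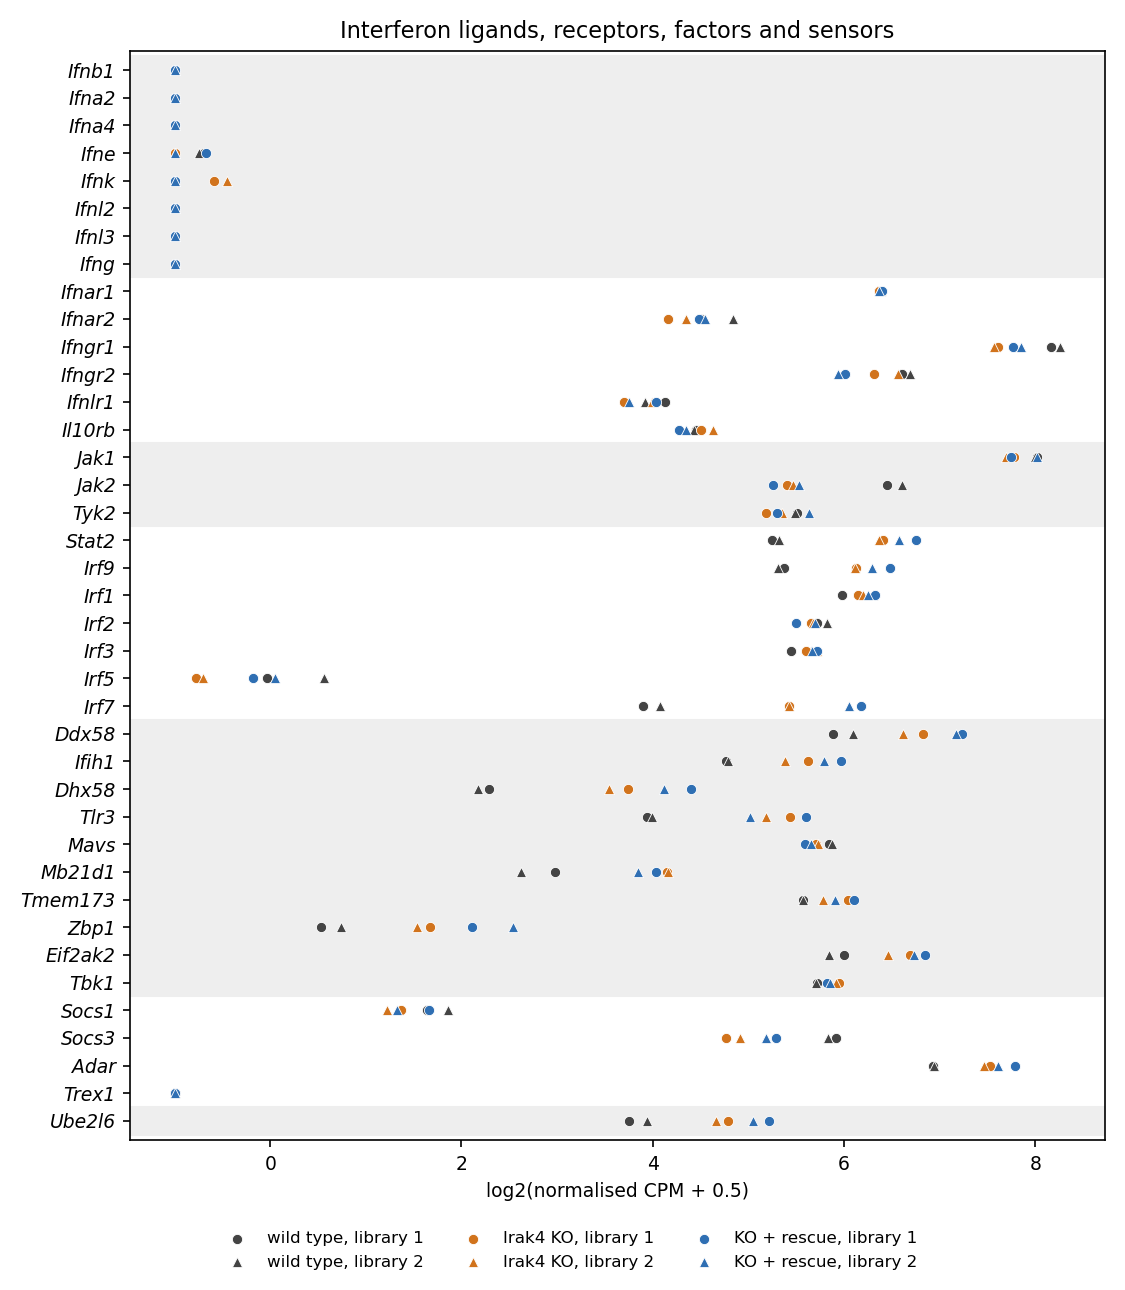
Level of 39 other genes of the interferon and nucleic acid sensing pathways in each library, as log2 of normalised CPM plus 0.5, in shaded bands of ligands, receptors, kinases, factors, sensors, restraints and the ISG15 conjugating enzyme. The 8 interferon genes listed sit at or near the left edge in every library, Ifnar1 stays in place, and Stat2, Irf7 and Dhx58 lie lowest in wild type.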

How the data were processed

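The deposited files hold, per the file headers, 3 values per gene (count, CPM and RPKM), made by the authors from the reads. The deposited CPM was checked to be the count scaled to 1000000 over the file's total, and the deposited RPKM to be that CPM per kilobase of the listed length. Per the submitters' processing notes, bcl2fastq, STAR 2.0.4b, Subread, featureCounts 1.45 and GRCm38 were used. The strand setting of the counting, and its annotation release, are not stated there. Symbols came from GENCODE M21 (40340 identifiers), coordinates from the files, and Mb21d1 was matched as Cgas through RefSeq synonyms. Counts were filtered with filterByExpr (minimum count 10), scaled by TMM and tested with edgeR 4.0.16's quasi-likelihood test in R 4.3.3 over all 6 libraries (12339 genes tested, 29049 not, 3 residual degrees of freedom). Benjamini-Hochberg adjustment ran over every gene tested, and adjusted p under 0.05 was called. SE is the log2 fold change over the square root of F. Alternatives were DESeq2 1.42.0, its size factors in edgeR, other filters, only the groups compared, a replicate block, and each library left out. Fits were tested on simulated data. Near-identical transcripts were sought with blastn (at least 95% identity over 200 bases). All 32 members are named by rule, with a pathway list of 39 genes (1 further gene of the list is not reported here). The members and lists were chosen with earlier results of these data known.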

Additional observations from a re-analysis of the deposited data

How the results depend on the processing

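With 2 libraries per group, the counts of members called higher in the KO and in the rescue against wild type stayed within 1.5 times of their values under each alternative run, at 24 to 28 and 28 to 29. Leaving out 1 library gave 24 to 27 members called higher and 1 lower in the KO, 4 to 15 higher and 0 to 1 lower in the rescue against the KO, 28 higher and 0 to 1 lower in the rescue against wild type, and 4 to 13 that rose at both steps. Over all genes the same fits called 3693 to 6668 in the KO against wild type, 203 to 3445 in the rescue against the KO and 1108 to 3652 in the rescue against wild type. The lowest of these left out the first wild-type library for both comparisons with wild type and the second KO library for rescue against KO. DESeq2 called 1080 genes in the rescue against the KO and 1715 in the rescue against wild type, against 1756 and 2744, and a fit of only the groups compared called 1044 in the rescue against the KO. The cause was not tested. DESeq2 kept 11 members higher in the rescue against the KO, without Ifit3, Rsad2 and Dtx3l. Without a filter Mx1 was called higher in the KO (adjusted p = 0.027) and Sp110 in the rescue against wild type (adjusted p = 0.011).

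Replicate numbers are shared across groups, but nothing says that a number marks a shared culture or day. Same-numbered libraries deviated with correlations of 0.037 (wild type and KO), -0.153 (wild type and rescue) and -0.192 (KO and rescue). With a replicate block 27 members rose and 1 fell in the KO, 12 rose in the rescue against the KO (Ifitm3 and Dtx3l lost), 28 rose against wild type and 10 rose at both steps, while genes called numbered 5203, 1194 and 2157.

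Log2 fold changes that changed sign were not called with all libraries or with the library named left out. For rescue against KO these were Uba7 (-0.002 without the second KO library, -0.087 without the first rescue library), Ifit1 (-0.04), Cmpk2 (-0.065) and Parp12 (-0.052) without the first rescue library, Parp10 (-0.026 and -0.067 in the order of Uba7), Trim21 (-0.021 without the second KO library), Ifi35 (0.026 without the second rescue library) and Ifi27 (0.065 without the first rescue library). Ifi27 also changed sign in the KO (-0.002 without the first wild-type library, -0.012 without the second KO library) and in the rescue against wild type (0.084 without the first rescue library), as did Isg20 there (0.001 without the first rescue library).

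Over the fits that leave out 1 library, rescue against KO ran from -0.087 to 0.21 for Uba7, -0.04 to 0.513 for Ifit1, -0.065 to 0.433 for Cmpk2, -0.067 to 0.098 for Parp10, -0.052 to 0.36 for Parp12, -0.021 to 0.281 for Trim21, -0.254 to 0.026 for Ifi35 and -0.301 to 0.065 for Ifi27. KO against wild type ran from -0.012 to 0.056 for Ifi27, and rescue against wild type from -0.274 to 0.084 for Ifi27 and -0.637 to 0.001 for Isg20. Isg20 was called at -0.637, without the second rescue library.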
